A study of Mus musculus with 64 samples.

Results

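The regions described here are stretches of mouse autosomes where the repressive histone mark H3K27me3 was called 24 h after B cells were stimulated, and not before. They were chosen as bases covered by an H3K27me3 peak in all 4 libraries of 24 h and in no library of 0 or 12 h. Stretches within 1 kb of each other were joined, and those of 2 kb or longer were kept. This gave 4075 regions, out of 21159 autosomal regions of 2 kb or more that all 4 libraries of 24 h covered. Of the others, 2131 were constitutive, which means that all 10 H3K27me3 libraries covered them. The remaining 14953 were covered in some of the earlier libraries and are called regions earlier in part.

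The cells were splenic CD23+ B cells of female F1 mus x cast mice. Their mothers were C57BL/6 with a heterozygous Xist deletion and their fathers were M. m. castaneous, and all groups shared this cross. The labels give no age. Cells were unstimulated (0 h) or received 1 µM CpG, a DNA ligand of the innate receptor TLR9, for 12 or 24 h. CUT&RUN, which releases DNA next to an antibody-bound target with a tethered nuclease, was done for H3K27me3 (3, 3 and 4 libraries at 0, 12 and 24 h), H2AK119Ub (4, 3 and 5), H3K9me3 (4 at each time) and H3K27ac, Suz12 and Ring1B (3 each at each time). Sample titles spell 1 mark H3K29me3, whereas the antibody label of the same samples says H3K9me3, the name used here. The labels call the replicates biological but do not tie them to animals, so p-values measure the spread between these libraries. The values are peaks of the Cast allele, as the list names have it.

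Defining B cell genes carried the active mark H3K27ac. Of 10 B cell markers (Cd79a, Pax5 and others), 9, 10 and 9 had an H3K27ac peak in at least 2 libraries at 0, 12 and 24 h, and none had H3K27me3 in at least 2 libraries. Markers of other cells were marked less widely: 2, 3 and 3 of 8 T cell markers (Cd3d and Lck at every time), 0, 1 and 3 of 8 myeloid, 0, 1 and 1 of 5 natural killer, 0 of 5 erythroid, and 0, 2 and 2 of 4 plasma cell markers. Whether cells other than B cells add to the values below was not tested.

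The lists differed in extent between times. H3K27me3 peaks covered 29.7 to 94.4 Mb of autosomes per library at 0 h, 80.9 to 132 Mb at 12 h and 201 to 311 Mb at 24 h, in 2771 to 7561, 10056 to 16525 and 20454 to 26767 peaks. At 0 h, 1 library covered 94.4 Mb and the other two at most 31.8 Mb. The weakest peak that was kept had a height of 6 to 9 signal steps at 0 h and 6 at 12 and 24 h. Read depth is unknown, so a region absent from the earlier lists had no called peak there, which is not the same as no mark. When every H3K27me3 list was shortened to its 2771 highest peaks, the same rule found 432 regions, and 238 of the 4075 regions (5.84%) were covered by these over at least 50% of their length. The part of list length in what follows was not tested further.

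H3K27me3 is laid down by Polycomb repressive complex PRC2, of which Suz12 is a core subunit. H2AK119Ub, ubiquitin on histone H2A, is laid down by PRC1, whose catalytic subunit is Ring1B. Each complex can bind the mark of the other, and H3K27me3 is known to spread outward from the sites where PRC2 first settles, often CpG-rich gene starts. H3K9me3 marks heterochromatin, and H3K27ac marks active promoters and enhancers and cannot share a histone tail's lysine with H3K27me3. In lymphocytes Polycomb is known for holding genes of other lineages and developmental regulators silent.

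The sequences before 6 gene starts that lie in new regions show how unlike these sites were. Cd3e (a T cell receptor chain), Ermap (an erythroid membrane protein) and Ccl12 (a chemokine) come from the gene lists. Ptger2 (a prostaglandin E2 receptor) lies in 1 of the 5 regions farthest from any constitutive region. Klhl22 (an adaptor of a ubiquitin ligase) was 1 of 31 regions tied for the largest change in H2AK119Ub, and Fam110c was among the genes most covered by a new region. The bases are those upstream of the RefSeq gene on GRCm38.p6, the same assembly as mm10, 5′ to 3′, with each CpG in capitals.
Cd3e, chr9:45009664-45009861, minus strand, 5 CpG in 198 bases: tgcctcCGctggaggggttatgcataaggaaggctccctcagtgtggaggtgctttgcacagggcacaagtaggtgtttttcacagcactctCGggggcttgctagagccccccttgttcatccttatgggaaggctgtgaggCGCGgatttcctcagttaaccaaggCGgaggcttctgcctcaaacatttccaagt
Ermap, chr4:119190014-119190245, minus strand, 5 CpG in 232 bases: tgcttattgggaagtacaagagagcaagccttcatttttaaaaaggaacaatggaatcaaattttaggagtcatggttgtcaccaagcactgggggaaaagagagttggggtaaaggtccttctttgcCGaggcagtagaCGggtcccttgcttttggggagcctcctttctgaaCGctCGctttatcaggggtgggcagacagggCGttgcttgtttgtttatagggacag
Ccl12, chr11:82101595-82101844, plus strand, 1 CpG in 250 bases: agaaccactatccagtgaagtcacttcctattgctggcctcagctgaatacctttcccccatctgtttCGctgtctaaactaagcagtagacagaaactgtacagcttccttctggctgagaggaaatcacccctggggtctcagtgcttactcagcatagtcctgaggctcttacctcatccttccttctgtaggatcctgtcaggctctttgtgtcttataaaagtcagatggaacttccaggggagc
Ptger2, chr14:44987861-44988110, plus strand, 3 CpG in 250 bases: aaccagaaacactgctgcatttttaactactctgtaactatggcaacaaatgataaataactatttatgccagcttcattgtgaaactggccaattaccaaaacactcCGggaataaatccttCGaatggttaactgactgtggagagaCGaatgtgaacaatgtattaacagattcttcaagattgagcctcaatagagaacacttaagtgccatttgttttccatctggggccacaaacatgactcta
Klhl22, chr16:17759391-17759620, plus strand, 13 CpG in 230 bases: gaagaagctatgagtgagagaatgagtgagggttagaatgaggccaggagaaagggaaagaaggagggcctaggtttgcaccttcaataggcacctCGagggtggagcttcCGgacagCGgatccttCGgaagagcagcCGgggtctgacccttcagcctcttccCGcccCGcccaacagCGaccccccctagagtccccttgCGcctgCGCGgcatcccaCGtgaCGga
Fam110c, chr12:31073718-31073967, plus strand, 13 CpG in 250 bases: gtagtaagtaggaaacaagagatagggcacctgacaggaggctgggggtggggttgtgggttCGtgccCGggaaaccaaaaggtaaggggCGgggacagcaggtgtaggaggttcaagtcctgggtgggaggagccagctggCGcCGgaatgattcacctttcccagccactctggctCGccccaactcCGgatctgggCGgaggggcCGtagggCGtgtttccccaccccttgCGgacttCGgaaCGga
Klhl22 and Fam110c have CpG-rich starts, and Ccl12 has a single CpG in the stretch shown.

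Across all gene starts with a RefSeq promoter window (250 bases before to 50 after), 265 windows of 234 genes had their start base in a new region. A window was placed by its start base alone and can reach outside the region. Their median CpG count was 15 (25th to 75th percentile 6 to 25). It was 19 for 584 windows with the start base in a constitutive region, 16 for 2571 in a region earlier in part and 14 over all 20054 windows. A ratio of observed to expected CpG of at least 0.6 was found in 48.3% of the windows in new regions, in 60.1% of those in constitutive regions and in 48.9% of all. The letters TATAAA, searched on both strands, occurred in 11.3% of the windows in new regions and in 12.7% of all. By these measures the starts in new regions lay near the average of all genes, and those in constitutive regions were richer in CpG.

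The new regions were short, and most lay away from constitutive H3K27me3. Together they covered 16.4 Mb, 0.666% of the autosomes. Their median width was 3.71 kb (25th to 75th percentile 2.88 to 4.72 kb) and the widest spanned 14.5 kb, whereas constitutive regions had a median of 4.76 kb. The nearest constitutive region was at a median distance of 235 kb (25th to 75th percentile 65.8 to 649 kb). This median was 159.9 kb without replicate 1 of 0 h, 104 kb without replicate 2 of 0 h and 91.2 kb with H3K27me3 lists of equal length. The nearest one was within 10 kb for 234 new regions (5.74%), between 10 and 100 kb for 1076, between 100 kb and 1 Mb for 2126 (52.2%), and farther for 639. Of the regions earlier in part, 23.4% lay within 10 kb of a constitutive region.

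Many new regions instead adjoined H3K27me3 that was already present in at least 1 earlier library. A peak of 0 or 12 h lay within 1 kb of 1819 new regions (44.6%), and 1584 (38.9%) touched one. The share within 1 kb was 71.8% with stricter 24 h lists and 93.5% with lists of equal length. Only 694 (17.0%) had a peak of 0 h within 1 kb, so most of these neighbours were seen first at 12 h. Another 1019 (25.01%) lay 1 to 10 kb from an earlier peak, 1237 (30.4%) lay farther than 10 kb and 233 (5.72%) farther than 100 kb. In all 4 libraries of 24 h, 1611 new regions (39.5%) were part of a peak that also ran over earlier bases, and in none of the 4 were 1537 (37.7%).

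**Figure D1:**
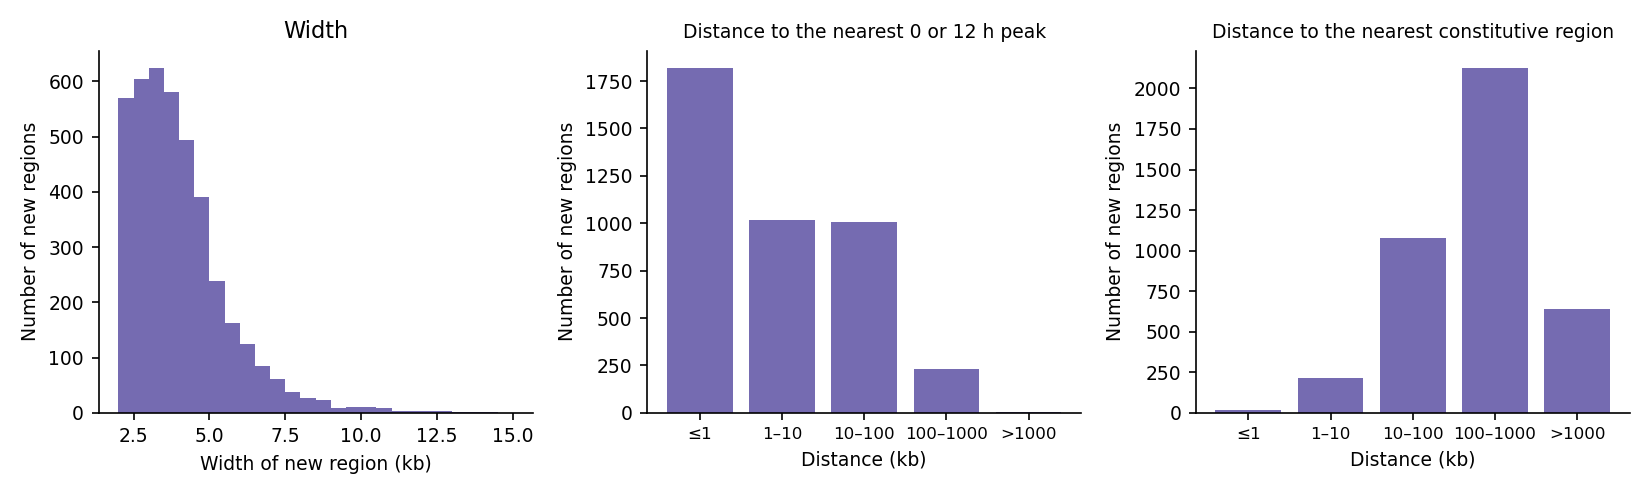
Number of new regions by width (left, kb), by distance to the nearest H3K27me3 peak of 0 or 12 h (middle, kb) and by distance to the nearest constitutive region (right, kb). The median width is 3.71 kb, 1819 regions lie within 1 kb of an earlier peak, and 2126 lie 100 to 1000 kb from a constitutive region.

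These values describe what the rule selected. Leaving out replicate 1 of 12 h, the library of that time with the most peak length, raised the number of regions to 6353, and leaving out replicate 2 of 24 h raised it to 6132. At the length limit, 238 stretches that fell short of it by at most 200 bp were left out, and 228 regions exceeded it by less than 200 bp. In the 24 h lists the peak holding a new region had a median height at percentile 54.5 of its own list, against 74.5 for regions earlier in part and 94.7 for constitutive regions. The peaks holding new regions thus were of middling height at 24 h, and those holding constitutive regions stood at the top of the lists. Peaks holding a new region had a median width of 12.1 kb, so their highest point need not lie inside it.

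Around their centres the new regions formed a dip in the earlier H3K27me3 lists and a summit at 24 h, as the rule fixes. A point 10 kb downstream of the centre is beyond the edge of even the longest region (14.5 kb). There H3K27me3 covered 8.49% ± 6.51 (SD, n = 3) of the positions at 0 h. It covered 18.3% ± 4.12 over 3 libraries of 12 h and 43.2% ± 7.43 over 4 libraries of 24 h. The flanks therefore carried more called H3K27me3 at each later time, as did the autosomes as a whole, whose covered share was 2.11, 4.28 and 9.66%. Peaks of 24 h that hold a new region had a median width of 12.1 kb, and their part in the flank values was not tested.

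**Figure D2:**
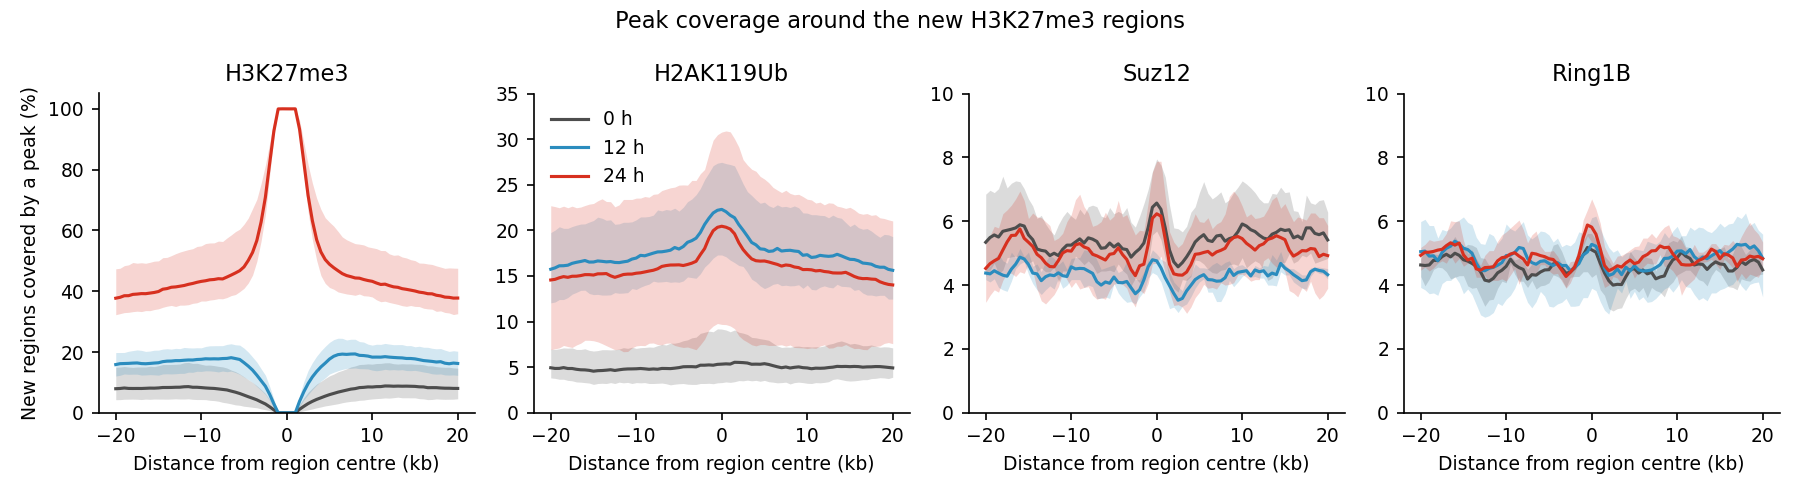
Percent of the 4075 new regions covered by a peak (vertical axis) at each distance from the region centre (horizontal axis, kb), for H3K27me3, H2AK119Ub, Suz12 and Ring1B at 0, 12 and 24 h. Lines are means over libraries and bands run from the lowest to the highest library; H3K27me3 at the centre is fixed by the rule, and H2AK119Ub at the centre is 5.34, 22.3 and 20.5% at 0, 12 and 24 h.

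Per chromosome, the new regions were densest on chromosome 11 (24.2 per 10 Mb) and chromosome 7 (21.9), and sparsest on chromosome 14 (12.3). Regions earlier in part also had their highest share on chromosome 11 (6.95% of its length) and their lowest on chromosome 14 (3.05%). Constitutive regions covered 0.663% of chromosome 11 and 0.272% of chromosome 14, the latter their lowest share. Of all new regions, 630 (15.5%) had another within 10 kb and 2446 (60.02%) within 100 kb. The 1 Mb window with the most held 19, at 67 to 68 Mb of chromosome 11, over Gas7, Usp43, Glp2r, Cfap52 and Myh3. The next, with 15 at 50 to 51 Mb of chromosome 6, had no protein-coding gene under its new regions. A window with 14, at 82 to 83 Mb of chromosome 11, runs over the chemokine genes Ccl11 and Ccl12. Another with 13, at 96 to 97 Mb of chromosome 11, runs over Skap1, Prr15l and the Hoxb cluster. These windows were chosen after their values were seen.

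H2AK119Ub, the mark of PRC1, was on part of the new regions by 12 h, when the rule allows no H3K27me3 peak there. Its peaks covered 4.62, 9.03, 3.29 and 4.36% of the total length of the new regions in the 4 libraries of 0 h. At 12 h the 3 libraries gave 21.6, 27.7 and 17.4%. At 24 h the 5 libraries gave 30.3, 17.6, 18.0, 9.55 and 25.6%. Every library of 12 or 24 h was above every library of 0 h, with 9.55% in replicate 4 of 24 h close to the highest of 0 h. Means were 5.32% ± 2.54 (SD, n = 4), 22.2% ± 5.15 (3 libraries) and 20.2% ± 8.003 (5 libraries).

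The whole H2AK119Ub lists grew as well, from 1.59% of the autosomes at 0 h to 5.20 and 5.36%. Relative to the autosomal share of the same library, coverage of the new regions was 3.25 ± 0.39 times at 0 h (libraries 2.92 to 3.80), 4.28 ± 0.05 times at 12 h (4.23 to 4.34) and 3.82 ± 0.19 times at 24 h (3.504 to 3.980). The libraries of 0 and 12 h did not overlap on this scale, and those of 0 and 24 h did. In constitutive regions the same ratio was 32.3, 16.4 and 16.1, and in regions earlier in part 9.95, 7.94 and 6.55. Both the separation in new regions and the fall in constitutive ones depended on the length of the lists. With H2AK119Ub lists shortened to the same number of peaks, the ratio of the new regions was 2.98 (libraries 2.73 to 3.53), 3.36 (3.17 to 3.56) and 3.49 (3.21 to 3.77), with overlap between 0 h and both later times. That of constitutive regions was then 37.2, 40.5 and 35.8, and that of regions earlier in part 10.8, 10.7 and 9.16. No test was made of these sums over chosen regions.

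**Figure D3:**
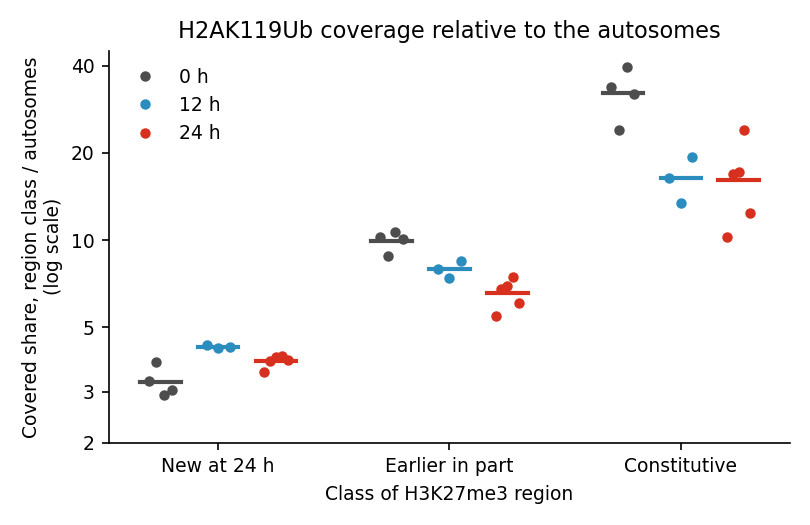
Share of length covered by H2AK119Ub peaks in each class of H3K27me3 region, divided by the share of the autosomes covered in the same library (vertical axis, log scale). Points are libraries and bars are means; the new regions go from 3.25 at 0 h to 4.28 at 12 h and 3.82 at 24 h, while the constitutive regions go from 32.3 to 16.4 and 16.1 (37.2, 40.5 and 35.8 with lists of equal length, not drawn).

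At 24 h the ratio to the autosomes was higher in new regions far from earlier H3K27me3 than in those near it. Over 10 kb from any earlier peak it was 3.43 ± 0.90 at 0 h (libraries 2.41 to 4.36), 4.85 ± 0.13 at 12 h and 4.86 ± 0.54 at 24 h (4.07 to 5.47). The libraries of 0 and 24 h thus overlapped. Within 1 kb of an earlier peak it was 3.65 ± 0.22 (3.44 to 3.94), 3.96 ± 0.18 and 3.20 ± 0.14 (3.00 to 3.37), so lower at 24 h than at 0 h. Lists of equal length were not tried for these subsets. New regions that hold a gene start had the highest coverage, at 11.04% ± 4.16, 34.2% ± 3.15 and 38.2% ± 9.71, against 4.96% ± 2.44, 21.5% ± 5.31 and 19.0% ± 7.91 for those without one (n = 4, 3 and 5).

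Region by region, H2AK119Ub was unevenly spread. All 4 libraries of 0 h had it in 73 new regions (1.79%), all 3 of 12 h in 536 (13.2%) and all 5 of 24 h in 358 (8.79%). In 1926 (47.3%) no library of any time had an H2AK119Ub peak. It was absent at 0 h and present in every library of 12 and 24 h in 92 regions, whereas only 6 were without it at 0 and 12 h and had it in every library of 24 h. Among constitutive regions 2.299% lacked it in all 12 libraries.

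In limma tests over all regions, H2AK119Ub coverage was higher at 24 h than at 0 h (adjusted p under 0.05) in 305 new regions and lower in 6. These are 7.48 and 0.147% of the 4075, of which 1328 had a peak in at least 3 libraries and could be tested. Over all 3 classes, 25% of the 11715 regions tested were higher and 1.18% lower, and 13.8% of all 21159 regions were called higher. Of all constitutive regions 27.4% were called higher, and of all regions earlier in part 13.6%; a smaller part of the new regions could be tested. At 12 h against 0 h, 281 new regions were higher and 3 lower, with 25.6 and 0.350% over all regions tested. Between 12 and 24 h only 12 were higher and 24 lower (0.461 and 1.31% over all). When each library was scaled by its autosomal covered length, the calls at 24 h against 0 h split into 259 higher and 93 lower in new regions, and into 2249 higher and 2394 lower over all. With lists of equal length they were 42 and 35 in new regions and 352 and 640 over all, so the direction over all regions turned. With a filter of at least 1 library in place of 3 they were 255 and 5 in new regions.

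At 31 new regions the change in H2AK119Ub coverage between 0 and 24 h was 100 points in size. In 1 of them, chr10:96987819-96989991, it fell from 100% in every library of 0 h to 0 in every library of 24 h. In the others it was 0 in every library of 0 h and 100% in every library of 24 h. Of these 31, 4 hold a gene start and are given here with 1 more, chosen as the longest of the others. The region at chr16:17755646-17759659 holds the start of Klhl22 and was fully covered in all 3 libraries of 12 h too (difference of 24 and 0 h 100 percentage points, SE 4.82, limma adjusted p = 9.74e-08). That at chr12:112676899-112682004 holds the start of Zbtb42, a zinc finger protein, and had 37.4, 36.9 and 54.0% at 12 h (SE 5.55, limma adjusted p = 1.83e-07).

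The region at the start of Rem2, a small GTPase (chr14:54473788-54476272), had 0, 100 and 79.0% at 12 h (SE 16.2, limma adjusted p = 0.00112). At the start of Rps6kl1, a kinase-like gene (chr12:85148988-85152004), the 12 h libraries gave 100, 0 and 92.0% (SE 17.0, limma adjusted p = 0.00155). The Rem2 and Rps6kl1 regions passed the filter of 3 libraries only with those of 24 h, where they are high. Their tests therefore give no support. The region at chr11:88191266-88197150, in Cuedc1 and Mrps23, had 100, 91.1 and 93.5% at 12 h (SE 5.00, limma adjusted p = 1.00e-07). At all 5 the mark was absent at 0 h and complete at 24 h. At 12 h it was complete in every library at Klhl22 only.

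The 6 new regions with lower H2AK119Ub at 24 h were mostly outside genes. A pair of neighbours on chromosome 10, chr10:96987819-96989991 and chr10:96996498-96999836, were fully covered in all 4 libraries of 0 h and in 1 of 3 at 12 h. The first was at 0 in all 5 libraries of 24 h (difference -100 points, SE 17.7, limma adjusted p = 0.00201), and the second was covered in 1 of them (-80.0 points, SE 25.6, adjusted p = 0.0425). The only one of the 6 inside a gene was in Chrm3, a muscarinic receptor (chr13:10029840-10033551, -81.1 points, SE 24.4, adjusted p = 0.0332). The chromosome 10 pair and the Chrm3 region passed the filter of 3 libraries only with those of 0 h, where they are high. Their tests therefore give no support. At these 6 sites H2AK119Ub was called at 0 h and H3K27me3 at 24 h, and the former was absent from most libraries of 24 h. They were chosen after their values were seen.

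The Polycomb subunits themselves covered little of the new regions at any time. Suz12 covered 7.16, 5.52 and 4.96% at 0 h, 4.65, 4.01 and 4.73% at 12 h and 4.29, 6.89 and 5.19% at 24 h, and the libraries of 0 and 24 h overlapped. Ring1B covered 5.02, 5.29 and 4.28%, then 5.85, 5.64 and 3.66%, then 5.94, 5.29 and 5.00%, with overlap between all times. Relative to the autosomes this is 2.04, 1.62 and 2.31 times for Suz12 and 1.75, 1.58 and 1.94 times for Ring1B. In constitutive regions these ratios were 11.4, 8.62 and 15.8 for Suz12 and 7.39, 5.51 and 8.51 for Ring1B. By their names, the lists of these subunits hold a fixed top share of signal blocks, so their length does not measure how much was bound.

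**Figure D4:**
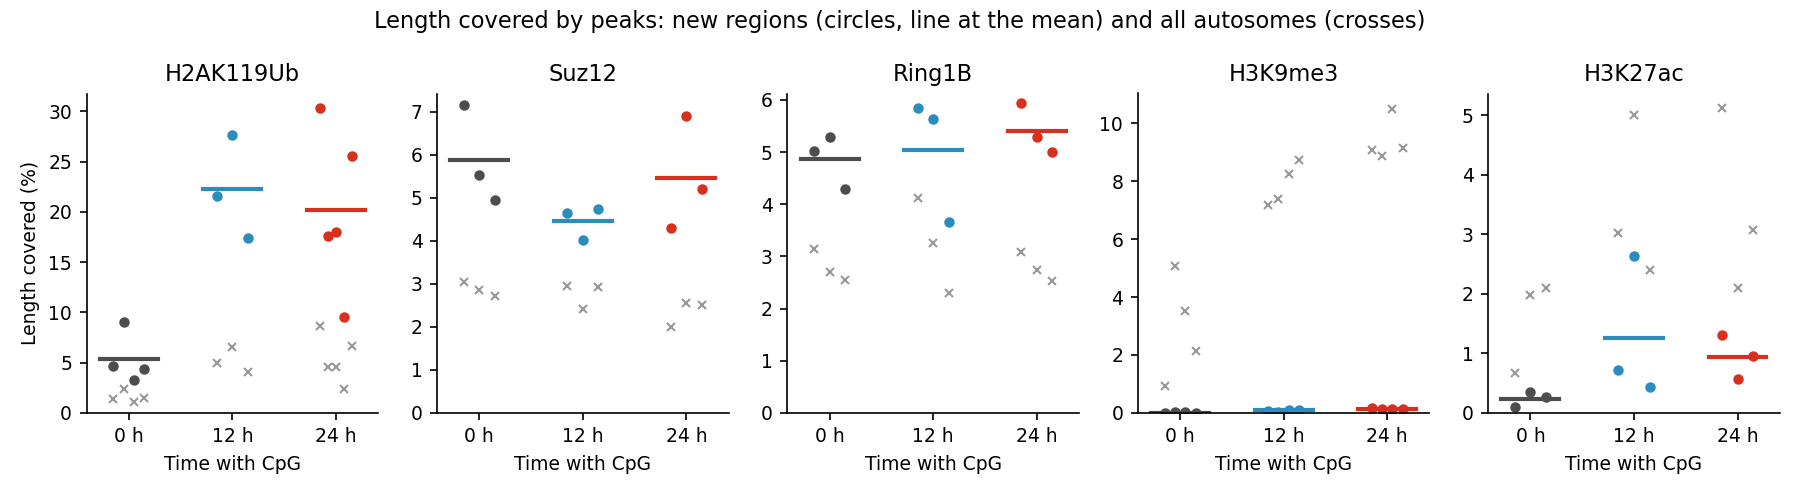
Percent of the total length of the new regions covered by peaks of the other 5 antibodies (circles, 1 per library, line at the mean) and of all autosomes (grey crosses) at 0, 12 and 24 h. Circles lie above the crosses for H2AK119Ub, Suz12 and Ring1B in mean level and below them for H3K9me3 and H3K27ac; each panel has its own scale starting at 0.

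No new region was called for Suz12 between 24 and 0 h in limma tests, with 518 tested. Over all 7826 regions tested, 0.0256% were called higher and 0.0128% lower. At an unadjusted p under 0.05, 19 new regions were higher and 38 lower, and over all regions 411 and 253. With lists cut to the top 50% of their peaks, 6 of 239 new regions tested were called higher and 6 lower, and 72 and 29 of 4910 over all. For Ring1B, 2 new regions were higher and 1 lower, where 0.325 and 0.0362% of the 5531 tested were called. The 2 lie at chr18:64335496-64338712, 1.32 kb from Onecut2, a homeobox gene, and at chr2:173364661-173367641, 87.9 kb from Pmepa1. At the first, Ring1B covered 0% in every library of 0 and 12 h and 100, 93.3 and 98.8% at 24 h. At the second it covered 88.6, 98.9 and 66.1% at 24 h only.

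The region with lower Ring1B, chr6:68227741-68230167, lies among the variable segments of the immunoglobulin kappa light chain locus. Ring1B covered 73.2, 95.7 and 69.5% of it at 0 h and none at 12 or 24 h. Each of these 3 regions passed the filter of 3 libraries only through the time at which it is high, so its test gives no support, and with a filter of at least 1 library no Ring1B call was made. All 3 Ring1B calls were lost when any single library of 0 or 24 h was left out. Where that library was of the time at which the region is high, the region no longer passed the filter. Such a loss was fixed by the filter and is no result of a test. The other losses came in fits where the remaining pair was assumed to vary like the other groups. The calls were also lost on the log2 scale.

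H3K9me3 was almost absent from the new regions, while its lists grew to cover a larger share of the autosomes. It covered 0 to 0.0149% of their length in the 4 libraries of 0 h, 0.0407 to 0.112% at 12 h and 0.120 to 0.166% at 24 h, against autosomal means of 2.92, 7.89 and 9.40%. The constitutive regions were as poor in it, at 0.124% at 24 h. No library had H3K9me3 in 4058 of the 4075 regions (99.6%).

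Of the 10 new regions that could be tested for H3K9me3, 6 were higher at 24 h than at 0 h, and over all classes 47.4% of 57 were. At 12 h against 0 h 3 were higher (17.5% over all), and at 24 h against 12 h 2 were higher and 1 lower (19.3 and 5.26% over all). They lay at the start of Cks1brt, in Zfp978 (a zinc finger gene) and Cdk5rap1, and near Ghitm, Chil6 and Lipg. At the Cks1brt region (chr8:85149179-85156296) H3K9me3 covered 0% in all libraries of 0 h, 0, 0, 65.7 and 61.5% at 12 h and 81.8, 68.6, 91.5 and 37.5% at 24 h (difference 69.9 points, SE 17.2, limma adjusted p = 0.00852). At the region near Chil6 (chr3:106441476-106446392) it appeared at 24 h alone, with 38.9, 44.1, 41.9 and 56.5%. This region, and those at Cks1brt and in Cdk5rap1, passed the filter only with libraries of 24 h, so their tests give no support. With a filter of at least 1 library, 5 of 17 new regions tested were higher, and 16 of 128 over all. At these few sites both repressive marks were called at 24 h.

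H3K27ac was also low. It covered 0.0937, 0.357 and 0.266% of the new regions at 0 h, 0.716, 2.63 and 0.436% at 12 h and 1.31, 0.563 and 0.948% at 24 h, which is 0.149, 0.315 and 0.278 times the autosomal share. No library of 0 h had H3K27ac in 4039 (99.1%) of the new regions. Those with H3K27ac in all 3 libraries of 0 h were 3: a region 3.12 kb from Dnajb6 (chr5:29728176-29732775), one 15.02 kb from Tekt3 (chr11:63041831-63046643) and one 37.2 kb from Ankrd34c (chr9:89775938-89788180). Near Tekt3 the coverage was 77.7, 72.4 and 55.0% at 0 h, 58.1, 71.9 and 34.9% at 12 h and 32.2, 0 and 0% at 24 h. These 3 sites were chosen after their values were seen, and none of them was called.

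Only 1 new region was called for H3K27ac between 24 and 0 h, where 2.56% of 390 regions tested were higher. It lies at chr18:82704000-82706940, 11.1 kb from the zinc finger gene Zfp236, and H3K27ac covered none of it at 0 h, 63.99, 76.6 and 78.1% at 12 h and 75.2, 69.3 and 100% at 24 h (difference 81.5 points, SE 16.8, limma adjusted p = 0.0282). At 12 h against 0 h no new region was called for H3K27ac, where 0.513% over all were higher, and at an unadjusted p under 0.05 15 of 85 were higher, against 70 of 390 over all. The number of H3K27ac calls at 24 h ranged from 0 to 13 when single libraries were left out, with 13 without replicate 2 of 12 h. It was 17 on the log2 scale.

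Relative to genes, few of the new regions held a gene start. The start of a protein-coding gene lay in 228 (5.60%), against 23.8% of constitutive regions and 14.5% of regions earlier in part. Another 1523 (37.4%) overlapped a protein-coding gene without its start, 465 (11.4%) overlapped a lncRNA gene only, and 1859 (45.6%) lay outside both. Per length, starts were nevertheless denser in new regions (16.2 per Mb) than over the autosomes (8.15 per Mb), and densest in constitutive regions (49.6 per Mb). Protein-coding genes made up 38.1% of the bases of new regions and 39.97% of the autosomes. Whether a base was exonic was not determined, since the gene table used gives gene ends only.

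Of 20661 autosomal protein-coding genes, 1632 (7.90%) had a new region in the gene or within 2 kb of it. The gene lists compared with this share hold genes of the B cell itself, of other blood cells and of development. New regions were not found at any of 23 B cell identity genes, 32 cell cycle genes, 32 TLR and innate sensing genes, 62 C-type lectin genes or 7 CDK inhibitor genes. Of 26 genes of B cell activation and plasma cells, 1 had one, Cd86, a costimulatory ligand, in a region that touched an earlier peak and had no H2AK119Ub in any library. No test was made of any list, and longer genes have more room for a region.

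**Figure D5:**
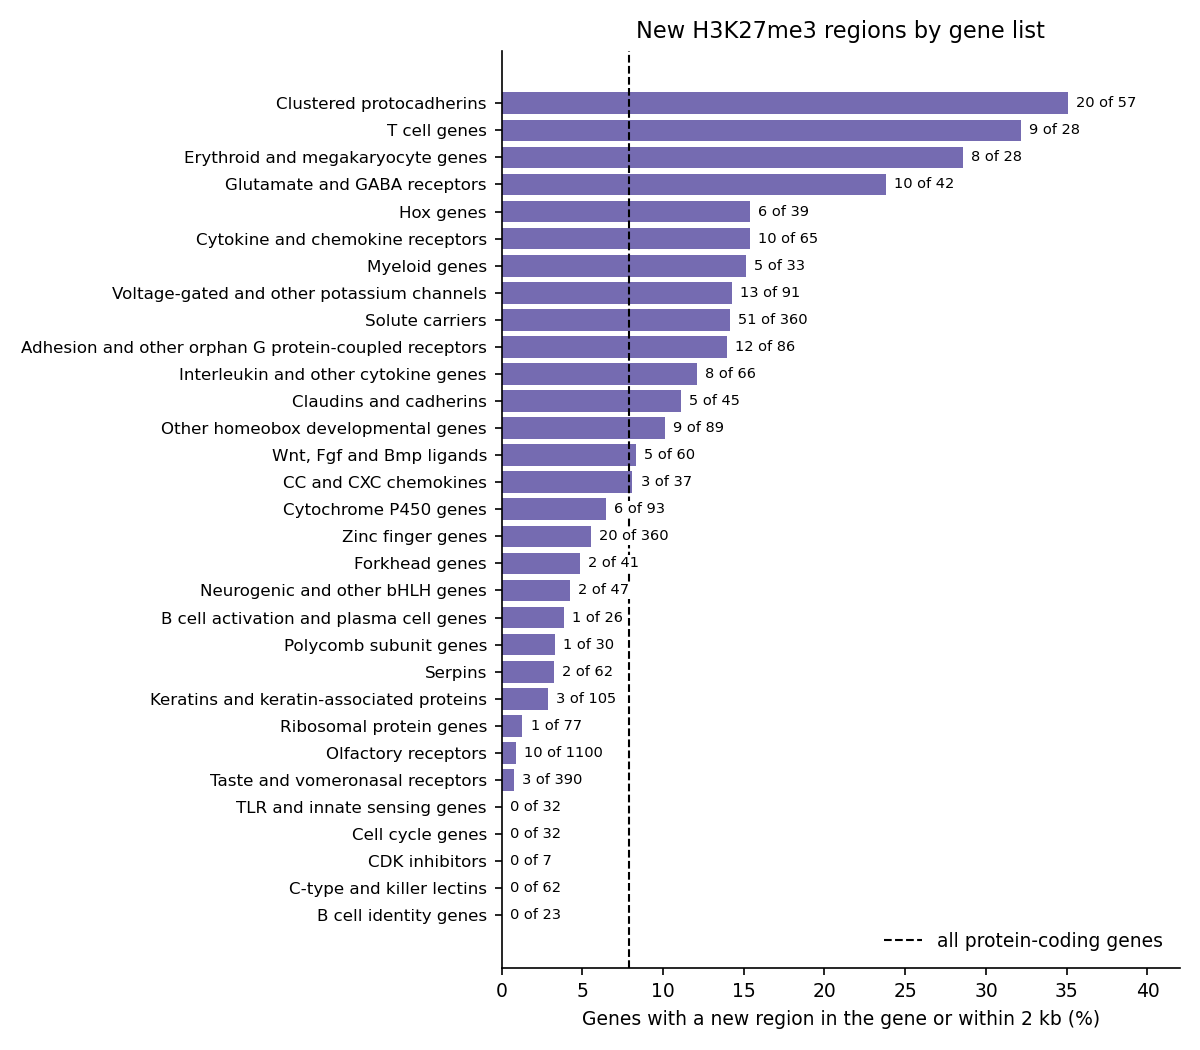
Percent of the genes of each list with a new region in the gene or within 2 kb (bars, with the counts), and the same percent for all protein-coding genes (dashed line at 7.90%). T cell genes (9 of 28) and erythroid and megakaryocyte genes (8 of 28) lie above the line, and B cell identity genes (0 of 23) at 0.

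T cell and erythroid genes were the lists most often touched, apart from the clustered protocadherins. T cell genes had new regions at 9 of 28 (32.1%), erythroid and megakaryocyte genes at 8 of 28 (28.6%). Myeloid genes had them at 5 of 33 (15.2%), near the shares of Hox genes and cytokine receptors (15.4% each). Constitutive regions lay at 4, 2 and 1 of these genes. Among the T cell genes were Cd247 and Cd3e (receptor chains), Cd3g and Cd4 (the helper T cell coreceptor). Of 8 T cell marker genes, 3 (Cd3d, Cd3g and Lck) had H3K27ac in at least 2 libraries at 24 h. Cd3g thus had both H3K27ac and a new region in the gene or within 2 kb. The part of these 3 genes in the counts was not tested.

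At Cd4 the new region (chr6:124861857-124866526) had no H2AK119Ub at 0 h, 100, 0 and 100% at 12 h and 100, 86.2, 49.8, 56.1 and 100% at 24 h (difference 78.4 points, SE 20.3, limma adjusted p = 0.0167). This region passed the filter of 3 libraries only with those of 24 h, so its test gives no support. At Cd247 (chr1:165839084-165845690), 197 kb from any earlier H3K27me3, H2AK119Ub was already at 39.1, 100, 100 and 100% at 0 h and was complete in every library after that. At the Cd3e start (chr9:45006642-45009821) it was found in 2 of 5 libraries of 24 h and in none before. These 3 T cell genes thus differed in whether H2AK119Ub was called at 0 or 12 h, when the rule allows no H3K27me3 peak.

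The erythroid genes included Nfe2 and Tal1, which encode transcription factors, Sptb (spectrin) and Ermap. The new region at Nfe2 (chr15:103254235-103260014) covered 40.7% of the gene with 2 kb on each side, and H2AK119Ub covered 100, 100, 99.4 and 0% of it at 0 h. At the Ermap start (chr4:119186988-119192659) H2AK119Ub was at 0 in all 4 libraries of 0 h, at 0, 23.9 and 80.4% at 12 h and at 96.4, 0, 20.9, 0 and 68.2% at 24 h, which did not pass the test (limma adjusted p = 0.246). Csf3r, the receptor of the granulocyte growth factor, had 97.0, 100 and 98.3% at 12 h and 100, 0, 95.3, 0 and 98.4% at 24 h after 0 in every library of 0 h (adjusted p = 0.0875).

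Cytokine genes had new regions at 8 of 66 (12.1%), their receptors at 10 of 65 (15.4%) and chemokines at 3 of 37 (8.11%). Il6 encodes an inflammatory cytokine that activated B cells can make. It had 2 new regions. The first, chr5:30008545-30012964, ends just before the gene, 49.2 kb from any earlier H3K27me3, and the second, chr5:30018365-30022579, overlaps its other end. H2AK119Ub in the first was 0 in all libraries of 0 h, 77.3, 100 and 100% at 12 h and 100% in all 5 libraries of 24 h (difference 100 points, SE 6.14, limma adjusted p = 4.08e-07), and in the second it was found in 1 library of 12 h and 1 of 24 h. H3K27ac covered 38.4, 82.5 and 0% of the first at 12 h and 0, 0 and 55.1% at 24 h. The rule allows no H3K27me3 peak there at 12 h. At 24 h H3K27ac and H3K27me3 were both called on this stretch, H3K27ac in 1 library only. These bulk libraries cannot tell 1 cell from another. Il17d (chr14:57525112-57527935, 88.6 points, SE 9.19, adjusted p = 3.57e-05) and the interleukin receptor gene Il18r1 (chr1:40469578-40473487, 70.7 points, SE 18.6, adjusted p = 0.0179) also rose in H2AK119Ub.

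The chemokine genes Ccl7, Ccl11 and Ccl12 form a cluster on chromosome 11, and all 3 chemokine genes with a new region lie in it. The region over Ccl12 (chr11:82097970-82108644) covers the whole gene with its flanks. No library of any time had H2AK119Ub there. The region at Ccl11 (chr11:82050671-82060858) had it in 1 library, over 11.3% at 12 h.

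Developmental regulators mostly had H3K27me3 before 24 h. Of 89 homeobox genes outside the Hox clusters, 56 had a constitutive region, another 29 had one earlier in part, and 9 had a new one. Of 39 Hox genes these counts were 10, 26 and 6, and a gene can hold a new region beside an earlier one. Pax7, a muscle and neural regulator, had 3 new regions. At 1 of them (chr4:139742500-139748183) H2AK119Ub was 0 at 0 h, 100% in all 3 libraries of 12 h and 100, 100, 100, 36.7 and 100% at 24 h (difference 87.3 points, SE 12.6, limma adjusted p = 0.000507). At Hoxa3 (chr6:52185686-52189727) it was 0, then 100, 72.7 and 89.3%, then 100, 52.8, 100, 98.3 and 74.4% (85.1 points, SE 10.6, adjusted p = 0.000167).

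Among the neural and transport lists, glutamate and GABA receptors had new regions at 10 of 42 genes (23.8%), potassium channels at 13 of 91 (14.3%) and solute carriers at 51 of 360 (14.2%). The glutamate and GABA receptor genes are long, with a median of 160 kb, against 17.5 kb for all genes. Kcnq1, a potassium channel gene in an imprinted domain, held the most new sequence of its list, 23.1 kb in 4 regions. At 1 of them (chr7:143148649-143157114) H2AK119Ub was 0 at 0 h, 66.4, 85.2 and 100% at 12 h and 89.4, 49.0, 51.7, 0 and 72.5% at 24 h (52.5 points, SE 15.7, limma adjusted p = 0.0317). The clustered protocadherins had 20 of 57, but their transcripts overlap on chromosome 18 and share the same few regions.

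Sensory receptor genes were seldom touched, with 10 of 1100 olfactory receptors (0.909%) and 3 of 390 taste and vomeronasal receptors (0.769%), and most of them had no H3K27me3 region of any class (91.5 and 94.9%). Of 77 ribosomal protein genes 1 had a new region, at the start of Rpl26 (chr11:68898400-68901627). H2AK119Ub there was 0 at 0 h, 82.4, 82.5 and 100% at 12 h and 100, 100, 20.8, 0 and 100% at 24 h (64.2 points, SE 21.4, limma adjusted p = 0.0494). H3K27ac covered 17.8, 26.6 and 32.6% of the same region at 24 h. Of 30 Polycomb subunit genes 1 had one, Pcgf2, a PRC1 subunit (chr11:97697813-97702242), where H2AK119Ub was 0, 70.7, 0 and 0% at 0 h and 74.1, 74.0, 59.6, 0 and 100% at 24 h (adjusted p = 0.152).

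Some genes were largely filled by new regions. With the gene and 2 kb on each side as the whole, new regions covered 79.4% of Cfap97d1 (a cilia and flagella gene), 76.3% of Tex46 (testis expressed), 73.9% of Oscar (an osteoclast receptor), 59.7% of Eppin (an epididymal protease inhibitor), 57.8% of Hap1 (huntingtin-associated protein), 57.5% of Fam110c, 55.9% of Apol7c and 55.1% of Ccl11. The 2 predicted genes Gm36864 and 4930432M17Rik had 64.4 and 59.1%. At Fam110c (chr12:31072512-31078242), 183 kb from earlier H3K27me3 and with the CpG-rich start shown above, no library had H2AK119Ub. At the Hap1 start (chr11:100355225-100360597) it covered 100, 100, 0 and 0% at 0 h and at least 61.5% in all libraries of 12 and 24 h (41.1 points, limma adjusted p = 0.200).

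The longest new region, 14.5 kb at chr9:108916565-108931052, lay 1.00 kb from Tmem89 and 80.7 kb from earlier H3K27me3. No library had H2AK119Ub, Ring1B or H3K27ac there, and Suz12 covered 27.8% in 1 library of 24 h. The next longest, 13.7 kb in Myo3b (chr2:70312334-70326072) and 13.7 kb in Ptger3 (chr3:157632664-157646331), touched earlier peaks. In the Ptger3 region H2AK119Ub covered 0, 36.1, 0 and 0% at 0 h, 47.7, 63.7 and 56.1% at 12 h and 77.1, 50.9, 54.4, 31.9 and 13.7% at 24 h. The other 7 of the 10 longest spanned 12.2 to 13.1 kb, in Mei1 and Pde10a and near Tmem154, Ston2, Phlpp1, Tmem132e and Ankrd34c. Near Ankrd34c H2AK119Ub covered 26.9, 99.3, 0 and 32.9% at 0 h and 100, 86.8, 90.6, 38.1 and 84.0% at 24 h, while near Tmem132e and in Pde10a no library had it.

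The 5 new regions farthest from a constitutive region lay 5748 to 7083 kb away, in Pappa, Astn2 and Fermt2, at the start of Ptger2 and near Dlg5. Those in Pappa (chr4:65124148-65127420) and Ptger2 (chr14:44987455-44991749) were also 464 and 538 kb from any earlier H3K27me3 peak. At Ptger2 H2AK119Ub was there from the start, with 94.9, 73.0, 100 and 100% at 0 h, 100% in all 3 libraries of 12 h and 100, 100, 100, 72.9 and 100% at 24 h. Ring1B covered 73.7, 52.3 and 0% of it at 0 h and 75.1, 44.1 and 57.5% at 24 h. The Pappa region had no peak of the other 5 antibodies in any library. These distant sites thus held both extremes. At Ptger2, Ring1B and H2AK119Ub had peaks at 0 h, when the rule allows no H3K27me3 peak. The Pappa site had H3K27me3 alone.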

How the data were processed

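Peak lists of 61 CUT&RUN libraries were used, 1 per sample as the authors deposited them. The 3 IgG samples are not analysed here. Tools named in the submitters' processing notes are deepTools 3.5.1, Picard, Bowtie2 2.3.4.1 and Trimmomatic 0.32, with the build mm10. List names say SEACR (a caller of continuous signal blocks), the Cast allele, and "norm relaxed" for the histone marks or "non, 0.01, stringent" for Suz12 and Ring1B. Not given in the sources used here are read depth, how reads were assigned to an allele and which SEACR version ran. Total and highest signal per peak are coverage values as deposited by the authors, and were used only to rank peaks within a list. A further deposited column, of another kind, gives the position of the highest signal and was not used.

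Peaks of 19 autosomes were merged per library. For each of the 21159 regions and each library, the percent covered by peaks was computed. limma 3.58.1 in R 4.3.3 (moderated test, trend and robust options) compared times over all libraries of an antibody, for regions with a peak in at least 3 libraries, with Benjamini-Hochberg adjustment over all regions tested and a threshold of 0.05. The unit is the percentage point, so no pseudocount enters. In simulated H2AK119Ub data with 11715 regions, 10 of 100 regions raised by 40 points and 21 of 100 raised by 60 were recovered. There were 3 false calls, and in such data many true differences would be missed. No other regions were changed in the simulation, whereas 25% of the regions tested were called higher at 24 h than at 0 h. The recovery in the real tests may therefore differ. Genes came from RefSeq (GRCm38.p6); of 548 symbols in the lists, 539 were in its table. Python 3.11.15, pandas 2.3.3 and numpy 2.4.6 were used.

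The members and the gene lists were chosen with earlier results of these data known, and H3K27me3 itself chose the members, so it was not tested in them. Regions and genes are named by rule: the 10 longest, the 5 farthest from a constitutive region, the 10 genes of at least 5 kb most covered, up to 5 called regions per antibody with the largest difference (all 6 for H3K9me3; ties at 100 points were broken by a gene start, then by length), and up to 4 genes per list with the most new bases. Not every gene so named is described. Alternatives were other limits on the regions, shorter lists, scaling, filters, the replicate block and leaving out each library.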

Additional observations from a re-analysis of the deposited data

How the results depend on the processing

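The number and length of the new regions followed the rule and the lists. With 3 of the 4 libraries of 24 h as the requirement there were 8877 regions over 42.6 Mb, 50.1% of them within 1 kb of an earlier peak. A minimum length of 5 kb left 815 regions, 5.29 Mb and 38.3%. Stricter 24 h lists, the top 50% of peaks, left 1356 regions, 5.23 Mb and 71.8%. Lists of equal length left 432 regions, 2.497 Mb and 93.5%. Dropping regions within 1 kb of an earlier peak left 2256 over 9.51 Mb. Merging within 5 kb gave 52.7% and a minimum of 1 kb gave 56.0% within 1 kb. Leaving out 1 library at a time gave 4117 to 6353 regions, 16.5 to 27.6 Mb and 40.5 to 49.6%.

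For H2AK119Ub at 24 h against 0 h, 305 new regions higher became 42 and 6 lower became 35 with lists of equal length. Lower calls were 93 with scaling by autosomal length and 2 with stricter lists. Without single libraries the calls were 209 to 376 higher and 2 to 8 lower. The ratio to the autosomes, in alternatives chosen after seeing the data, was 2.66 at 0 h and 4.02 at 12 h with stricter lists, and 3.36 at 12 h and 3.49 at 24 h with lists of equal length. Suz12 calls were 6 higher and 6 lower with stricter lists and 0 without any single library. Ring1B calls were 0 higher and 0 lower on the log2 scale and with a filter of at least 1 library, 22 and 2 with stricter lists, 11 higher with lists of equal length, and 0 to 3 higher and 0 to 1 lower without single libraries. H3K9me3 calls were 3 with lists of equal length, where only 3 regions could be tested, and 5 to 6 without single libraries. H3K27ac calls were 17 higher on the log2 scale, 0 with scaling, with a filter of at least 1 library and with lists of equal length, and 0 to 13 higher and 0 to 1 lower without single libraries. Genes with a new region over at least 25% of the gene and its flanks were 177, against 1632 with any. Where values moved, the cause was not tested.

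Equal replicate numbers at different times did not pair the libraries. Correlations of same-numbered libraries lay between -0.379 and 0.172 over the 5 antibodies, and 1 of the 12 for H3K9me3 and none of the others was over 0.1. With the replicate block, 171 new regions were higher and 3 lower for H2AK119Ub, 0 and 0 for Ring1B, 0 for H3K27ac, 5 higher for H3K9me3 and 0 for Suz12. Read depth is unknown, so it cannot be said how much a deeper library would add to the earlier lists.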
